A study of Mus musculus with 6 samples.

Results

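Type I interferon-stimulated genes are the transcripts that a cell raises when interferon alpha or beta binds its receptor, and 39 of them were followed here in mouse heart ventricle. A table row was taken when its gene symbol was on the list; the list itself was drawn up with earlier results of these data known. Of the 39, 37 had a row among the 18181 genes of the table, 36 had a mean of at least 1 FPKM and were tested among 11860 genes, and Oas3 lay under that level. Mx1 and Mx2 were not analysed here. FPKM divides a gene's fragments by its length and by all fragments mapped in the library, so levels of different genes can be set side by side.

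The aged group was ventricle tissue of C57BL6 mice, a common inbred line, aged 24 to 26 months. The young group was the same tissue and line at 6 to 8 weeks. Each age had 3 libraries of poly(A) RNA from separate samples, and no mutation or treatment is named for either. The labels give no sex and do not tie each sample to a mouse of its own, so a p-value here covers the spread among these 6 samples, which may be technical.

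Interferon signals through a receptor pair and the kinases JAK1 and TYK2 to a transcription factor complex that holds STAT2 and IRF9. This complex binds a DNA element called the ISRE, for interferon-stimulated response element, in the promoters of its targets. The targets include effectors that act on viral RNA and membranes, sensors that detect foreign nucleic acid, and signalling factors that feed back on the response. Many are also transcribed at a low level in tissue without infection.

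The ISRE is visible in the promoters of members from each of the effector and signalling groups, which are shown here because it is the element through which interferon acts on its targets, although not all of the windows searched hold it. Sequences are from RefSeq on GRCm38.p6, read 5′ to 3′ on the gene's own strand. Capitals mark matches on either strand to the ISRE core, which is GAAA, any 2 bases, then GAAA, and in the last line the GAS element TTCNNNGAA, which reads the same on both strands. Up to 40 bases stand on either side.
Isg15 (chr4:156200835-156200936, minus strand): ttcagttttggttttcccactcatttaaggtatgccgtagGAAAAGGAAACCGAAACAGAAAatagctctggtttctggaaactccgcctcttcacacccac
Bst2 (chr8:71537547-71537642, minus strand): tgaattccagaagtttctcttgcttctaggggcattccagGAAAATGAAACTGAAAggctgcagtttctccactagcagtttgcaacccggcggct
Ifit1 (chr19:34640745-34640853, plus strand): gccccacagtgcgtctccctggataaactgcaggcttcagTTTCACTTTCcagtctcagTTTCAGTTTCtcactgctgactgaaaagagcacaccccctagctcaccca
Ifit3 (chr19:34583333-34583456, plus strand): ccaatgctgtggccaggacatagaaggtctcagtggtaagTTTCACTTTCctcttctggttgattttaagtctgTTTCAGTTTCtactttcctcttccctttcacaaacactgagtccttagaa
Ifit3b (chr19:34607729-34607852, plus strand): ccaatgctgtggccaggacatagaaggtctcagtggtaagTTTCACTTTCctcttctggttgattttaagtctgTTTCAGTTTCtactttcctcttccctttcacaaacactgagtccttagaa
Oas1a (chr5:120907526-120907585, minus strand): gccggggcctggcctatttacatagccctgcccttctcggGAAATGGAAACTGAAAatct
Rsad2 (chr12:26456523-26456612, minus strand): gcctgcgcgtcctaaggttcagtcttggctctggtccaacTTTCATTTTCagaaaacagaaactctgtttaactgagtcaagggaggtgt
Stat2 (chr10:128270248-128270325, plus strand): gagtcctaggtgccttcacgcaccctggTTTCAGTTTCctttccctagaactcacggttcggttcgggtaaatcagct
Irf1 (chr11:53769884-53769972, plus strand): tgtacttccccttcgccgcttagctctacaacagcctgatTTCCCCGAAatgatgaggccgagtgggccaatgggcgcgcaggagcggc

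In Isg15, 3 overlapping cores run together, and Bst2 and Oas1a each have 2 that overlap. The stretches of Ifit3 and Ifit3b, neighbouring copies on chromosome 19, were identical over all 124 bases. Promoter windows of 250 bases before to 50 after the start site were found for 28 of the 37 genes. The core stood in 13 of the 28 (46.4%), against 3.71% of the tested genes with a window and 3.99% of the 27025 genes in the RefSeq promoter set. A longer form, the core followed by CT, stood in 7 of the 28 (25.0%) and in 0.303% of the RefSeq set. The GAS letters stood in 7 of the 28 and in 9.55% of the RefSeq set, and overlapped a core in 2 promoters. A match is a run of letters, not a bound site.

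Aged ventricle had less messenger RNA for most of these genes. Of the 36 tested, 24 were lower in aged than in young ventricle and 0 higher (limma, Benjamini-Hochberg adjusted p under 0.05 over all 11860 genes). At an unadjusted p under 0.05, 29 were lower and 1, Ifi27, higher. Over all tested genes 17.1% were called lower and 9.32% higher, against 66.7% and 0% of the members. Their median log2 difference was -0.62 in log2(FPKM + 1), a scale on which weakly expressed genes show too small a change, beside a median of -0.06 for all tested genes. In 26 members the 3 aged libraries all lay below the 3 young ones, an order that 27.9% of all tested genes showed. With median-of-ratios scaling the calls over all genes were 1484 higher and 1505 lower, and with quantile normalization 1321 and 1515, against 1105 and 2026 as deposited. Members called lower were then 21 and 19.

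**Figure D1:**
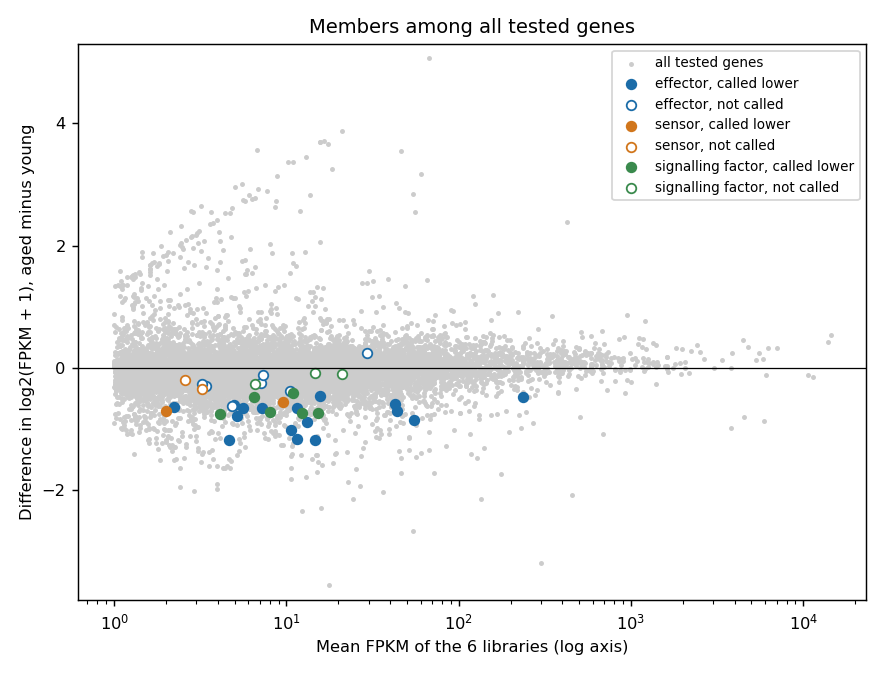
Each point is a tested gene, with its mean FPKM over the 6 libraries on a log axis and its difference in log2(FPKM + 1), aged minus young, on the vertical axis. Members are coloured by role and filled where called lower; all but Ifi27 lie below 0, the lowest at -1.18.

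Levels differed widely between members. Ifitm3 stood highest, at 197 ± 10.04 FPKM in aged and 276 ± 29.8 in young ventricle (SD, n = 3 each). It was followed by Ifi27l2a, Bst2, Lgals3bp and Ifi27, with means between 26.8 and 71.6 FPKM at both ages. In the other genes no mean exceeded 21.7 FPKM, the young level of Irf3. Summed over the 37 genes, the aged libraries reached 482, 584 and 550.1 FPKM, against 718, 911 and 762 in the young libraries. Without Ifitm3 the sums were 294, 389 and 342 FPKM in aged and 472, 605 and 487 in young ventricle.

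In these libraries stand differences that are not about interferon. The FPKM of a library summed to between 529258 and 566499, and 15750 to 16232 genes were above 0. Read totals are not in FPKM, but low values put the relative depth of the libraries at 1.077, 0.977 and 0.838 of their geometric mean in aged and 1.019, 0.994 and 1.12 in young replicates, in order. Myl2, a ventricular myosin chain, was at 16309.5 to 18357 FPKM in aged and 11179.6 to 12216 in young libraries, which fits the label ventricle, and of 7 cardiomyocyte markers 3 were higher and 0 lower (0 also at an unadjusted p under 0.05). The 9 genes of a stratified epithelium list summed to 299 and 481 FPKM in aged replicates 1 and 2, but to 0.78 in aged replicate 3 and 0.36 to 0.46 in young; their part in the members' difference was not tested. Against the young libraries, aged replicate 3 alone, assumed to vary like the others, gave 12 members lower and 0 higher, where 4.67% of all genes were called lower. In that fit 35 of 36 members had a negative difference, with a median of -0.51.

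The antiviral effectors were the largest group: 16 of 23 tested were lower and 0 higher, with Ifi27 the 1 effector higher at an unadjusted p under 0.05. Their median log2 difference was -0.65. The IFIT proteins bind foreign RNA and hinder its translation, and their genes lie together on chromosome 19 (34550550 to 34650009, GRCm38). Ifit2 was at 3.85, 6.89 and 5.38 FPKM in aged libraries, against 7.83, 11.6 and 7.5 in young ones, both in replicate order, as in all such sentences here. The ages did not overlap, and the log2 difference was -0.65 (SE 0.195, adjusted p = 0.0379).

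Ifit3 was at 6.87, 8.94 and 10.07 FPKM in aged and 15.2, 17.7 and 10.09 in young libraries. Young replicate 3 thus lay just above the highest aged library, and the log2 difference was -0.65 (SE 0.190, limma adjusted p = 0.0343). Its neighbour Ifit3b, with the identical promoter stretch, was at 2.17, 3.34 and 3.07 FPKM in aged and 3.62, 3.23 and 3.94 in young ventricle and did not pass (adjusted p = 0.183). Of the windows of 100 bases in the Ifit3 transcript 31.7% occur in Ifit3b, so their reads can be split between the copies and both values are uncertain. Ifit1 was at 2.39, 4.9 and 3.59 FPKM in aged and 6.6, 7.24 and 4.43 in young; aged replicate 2 lay above young replicate 3 and the gene did not pass (-0.63, adjusted p = 0.0576). The calls of Ifit2 and Ifit3 were each lost in 11 of 17 alternatives, among them leaving out aged replicate 1 or young replicate 1 or 2.

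The oligoadenylate synthetases make a messenger from double-stranded RNA that switches on RNase L, and the kinase PKR, encoded by Eif2ak2, stops translation on the same signal. Of 5 tested, 4 were lower and 0 higher at either an adjusted or an unadjusted p under 0.05. Oasl2, a synthetase-like gene, was at 4.67, 9.52 and 6.41 FPKM in aged and 12.8, 16.5 and 14.3 in young libraries. Each aged library lay below each young one (2.11-fold lower, log2 -1.02, SE 0.197, adjusted p = 0.00636). Eif2ak2 was at 3.1, 4.21 and 3.95 FPKM in aged and 5.69, 6.33 and 6.52 in young. Its aged libraries were again all below the young (-0.60, SE 0.1095, adjusted p = 0.00504).

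Oasl1, which in mice restrains the translation of Irf7, was at 1.18, 1.46 and 1.87 FPKM in aged and 2.51, 3.7 and 2.57 in young ventricle (log2 -0.65, limma adjusted p = 0.0159). Oas1a was at 2.1, 4.73 and 3.94 FPKM in aged and 7.13, 7.92 and 5.32 in young (-0.79, SE 0.219, adjusted p = 0.0275). In both genes every aged library lay below every young one. Of the windows of the Oas1a transcript 40.9% also occur in Oas1g, so its value is uncertain. Oas2 did not pass, at 4.52, 8.84 and 6.11 FPKM in aged and 6.16, 9.71 and 7.44 in young, and overlapped between the ages. Oas3, not tested, was at 0.28, 0.73 and 0.65 FPKM in aged and 0.55, 0.64 and 0.5 in young. The calls of Oasl1 and Oas1a were lost without aged replicate 1 or young replicate 2, that of Oas1a also without young replicate 1.

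Transcripts for proteins that restrict virus replication, release and entry were lower in all 3 tested cases. Rsad2 encodes viperin, an enzyme that makes a chain-terminating nucleotide. It was at 6.36, 7.51 and 6.18 FPKM in aged libraries, against 14.5, 19.8 and 14.8 in young (chromosome 12, 26442743 to 26456452). The lowest young value was thus well above the highest aged one, and the mean was 2.45-fold lower in aged (log2 -1.17, SE 0.123, adjusted p = 0.000351). Rsad2 had the smallest adjusted p of the 36 members.

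Bst2 encodes tetherin, which holds budding virus at the cell surface. Its levels were 27.1, 41.3 and 32.4 FPKM in aged and 47.7, 61.2 and 54.8 in young ventricle (-0.70, SE 0.144, limma adjusted p = 0.0084). Ifitm3, which blocks fusion of entering virus, was at 188, 195 and 208 FPKM in aged and 246, 306 and 275 in young (-0.48, SE 0.0824, adjusted p = 0.00395). Neither gene's ages overlapped, and the most abundant member fell the least of these 3 on the log2 scale.

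Isg15, a ubiquitin-like modifier, and 10 other induced genes made up the rest of the effectors: 7 were lower, 0 higher, and at an unadjusted p under 0.05 9 and 1. Isg15 (chromosome 4, 156199424 to 156200818) was at 6.9, 12.3 and 7.69 FPKM in aged and 17.8, 20.1 and 13.7 in young libraries. The highest aged library, replicate 2, came close to the lowest young one without reaching it (1.92-fold lower, log2 -0.89, SE 0.197, limma adjusted p = 0.0112).

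Ifi44 had the lowest log2 difference of all members. It was at 1.41, 3.73 and 2.43 FPKM in aged and 5.57, 8.4 and 6.32 in young ventricle (2.68-fold lower, -1.18, SE 0.229, limma adjusted p = 0.0066). Rtp4, of the receptor transporter family, was at 5.77, 12.3 and 8.44 FPKM in aged and 18.9, 24.7 and 18.1 in young (2.33-fold lower, -1.17, SE 0.218, adjusted p = 0.00538). In both genes aged replicate 1 was lowest and young replicate 2 highest. Of the windows of 100 bases in the Rtp4 transcript 11.2% also occur in Gm45338, so reads there may not have been told apart.

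Trim30a, a TRIM protein that in mice dampens Toll-like receptor signalling, was at 3.79, 4.99 and 3.74 FPKM in aged and 6.76, 7.77 and 6.72 in young (-0.65, SE 0.112, limma adjusted p = 0.00395). Ifi27l2a, of a family of small membrane proteins, was at 33.3, 40.1 and 43.03 FPKM in aged and 57.6, 92.04 and 65.2 in young (-0.85, SE 0.161, adjusted p = 0.0059). Ifi35 averaged 12.9 ± 0.605 FPKM in aged and 18.2 ± 2.11 in young, and Lgals3bp, a secreted galectin-binding glycoprotein, 33.6 ± 4.55 and 51.6 ± 9.23 (SD, n = 3 each). The ages were separate for all 4 genes, with the aged libraries lower.

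Ifi27 went the other way without passing. It was at 31.3, 31.3 and 31.95 FPKM in aged and 22.3, 30.1 and 28.03 in young libraries (log2 0.24, limma adjusted p = 0.117). It was the 1 member whose aged libraries all lay above the young ones, an order shown by 15.2% of all tested genes, and with median-of-ratios scaling it was called higher. Ifi27 and Ifi27l2a overlap on chromosome 12 in RefSeq (103434189 to 103440245 within 103433873 to 103443680), and no strand marking is stated for the libraries. Of the windows of 100 bases in either transcript 0% occur in a transcript of another gene.

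The other effectors did not pass. Ifi47, an interferon-inducible GTPase, was at 3.03, 2.78 and 3.06 FPKM in aged and 4.32, 3.96 and 3.34 in young (-0.30, limma adjusted p = 0.0667). Xaf1, a promoter of cell death, was at 8.02, 10.4 and 8.56 FPKM in aged and 10.06, 13.97 and 11.9 in young (-0.38, adjusted p = 0.0553). Slfn2, a Schlafen gene of immune cells, was at 5.02, 10.5 and 5.95 FPKM in aged and 6.65, 7.69 and 8.04 in young (-0.11, adjusted p = 0.737). For Slfn2 aged replicate 2 was the highest of the 6 libraries, and without aged replicate 1 its difference was 0.08.

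**Figure D2:**
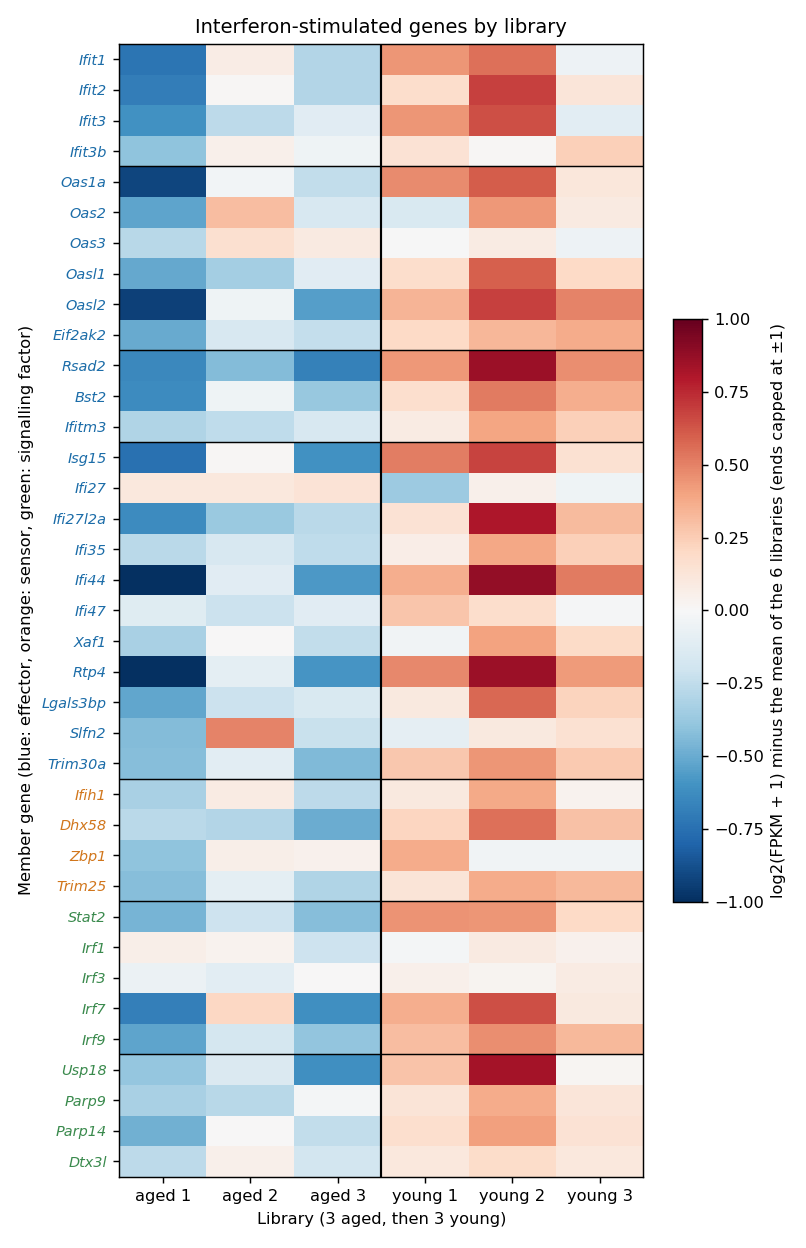
Rows are the 37 members, grouped by family and coloured by role, and columns the 3 aged and 3 young libraries. Colour gives log2(FPKM + 1) minus the mean over the 6 libraries; most rows are blue in aged and red in young libraries, with aged replicate 1 the deepest blue and young replicate 2 the deepest red in most.

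Among 4 sensors and sensor cofactors 2 were lower and 0 higher, and at an unadjusted p under 0.05 3 and 0. Dhx58 encodes LGP2, a regulator of the RNA sensors RIG-I and MDA5. It was at 1.41, 1.38 and 1.06 FPKM in aged and 2.38, 3.27 and 2.57 in young ventricle. The ages were apart (2.14-fold lower in aged, log2 -0.71, SE 0.131, limma adjusted p = 0.00538). Trim25, a ubiquitin ligase of the RIG-I pathway, was at 6.71, 8.7 and 7.4 FPKM in aged and 10.4, 12.4 and 11.99 in young (-0.55, SE 0.104, adjusted p = 0.00587).

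Ifih1, the sensor MDA5 itself, was at 2.32, 3.4 and 2.46 FPKM in aged and 3.44, 4.41 and 3.25 in young (-0.34, limma adjusted p = 0.111). Zbp1, a sensor of left-handed nucleic acid, was at 1.66, 2.66 and 2.63 FPKM in aged and 3.54, 2.43 and 2.44 in young (-0.20, adjusted p = 0.407). Both overlapped between the ages. The 95% interval of the difference reached from -0.66 to -0.02 for Ifih1 and from -0.57 to 0.17 for Zbp1.

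Of 9 signalling factors 6 were lower and 0 higher, also 7 and 0 at an unadjusted p under 0.05. Stat2 and Irf9 encode parts of the complex that binds the ISRE. Irf9 (chromosome 14, 55603985 to 55610030) was at 7.96, 10.4 and 8.86 FPKM in aged and 15.02, 16.8 and 15.2 in young libraries (1.73-fold lower, log2 -0.73, SE 0.0983, limma adjusted p = 0.00123). Stat2 (chromosome 10, 128270498 to 128292853) was at 5.3, 6.53 and 5.47 FPKM in aged and 10.8, 10.8 and 8.96 in young (1.77-fold lower, -0.73, SE 0.103, adjusted p = 0.00158). In both, replicates within an age lay close together and the ages far apart.

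Irf7 drives the later, amplifying wave of interferon production. It was at 8.61, 16.8 and 9.09 FPKM in aged and 18.8, 23.1 and 15.5 in young libraries (log2 -0.73, SE 0.228, limma adjusted p = 0.0436). Aged replicate 2 lay above young replicate 3, so the ages overlapped. The call was lost in 10 of 17 alternatives, including the removal of aged replicate 1 or 3 or of any 1 young library.

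Irf1 and Irf3 did not pass. Their promoter windows hold no ISRE core, but neither do those of Irf7 and Irf9, which were called lower. Irf1, which interferon gamma also induces, was at 15.2, 14.9 and 12.5 FPKM in aged and 14.3, 15.5 and 15.01 in young (-0.08, limma adjusted p = 0.548, 95% interval -0.27 to 0.12). The sign of its difference turned with quantile normalization (0.0076). Irf3, a constitutive factor activated by phosphorylation, was at 19.98, 19.4 and 20.9 FPKM in aged and 21.6, 21.3 and 22.2 in young (-0.11, adjusted p = 0.242, 95% interval -0.25 to 0.03). Its ages did not overlap, but by less than 1 FPKM.

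Of the response modulators 3 of 4 were lower and 0 higher, also 4 and 0 at an unadjusted p under 0.05. Usp18 removes ISG15 from proteins and blocks the receptor. It was at 2.72, 3.4 and 2.18 FPKM in aged and 4.91, 7.66 and 3.91 in young, with young replicate 2 far above the rest (1.99-fold lower in aged, log2 -0.76, SE 0.203, limma adjusted p = 0.0245). Parp14, an ADP-ribosyltransferase, was at 4.23, 6.32 and 5.18 FPKM in aged and 7.23, 8.72 and 7.07 in young (-0.48, SE 0.131, adjusted p = 0.0259).

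Parp9 and Dtx3l encode partners in a complex that ubiquitinates histones. Parp9 was at 8.36, 8.69 and 10.6 FPKM in aged and 11.8, 14.2 and 11.7 in young (-0.41, SE 0.106, limma adjusted p = 0.0214). Dtx3l was at 5.29, 6.84 and 5.65 FPKM in aged and 7.15, 7.59 and 7.14 in young and did not pass (-0.27, adjusted p = 0.073). The genes lie head to head on chromosome 16 and 7.77% of the Parp9 windows match the opposite strand of Dtx3l, and no strand marking is stated, so reads there may not have been told apart. The calls of Usp18, Parp9 and Parp14 were each lost without aged replicate 1 or young replicate 2, those of Usp18 and Parp14 also without aged replicate 3, that of Parp9 also without aged replicate 2 and that of Parp14 also without young replicate 3. Signalling factors lower were 2 without aged replicate 1 or young replicate 2, 3 without aged replicate 3 and 3 with no filter on low values.

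**Figure D3:**
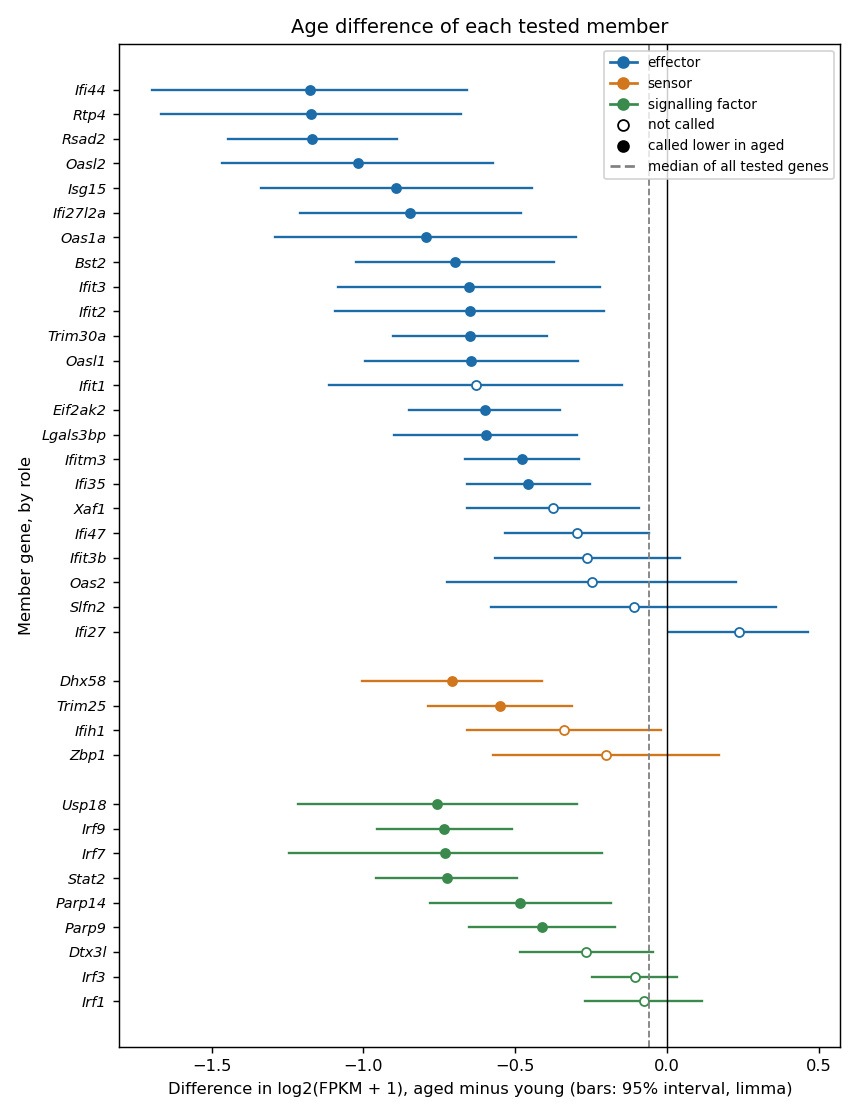
Points give each tested member's difference in log2(FPKM + 1), aged minus young, with its 95% interval from limma; filled points were called lower. Ifi44, Rtp4, Rsad2 and Oasl2 lie below -1, Irf1 and Irf3 close to the dashed median of all genes.

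**Figure D4:**
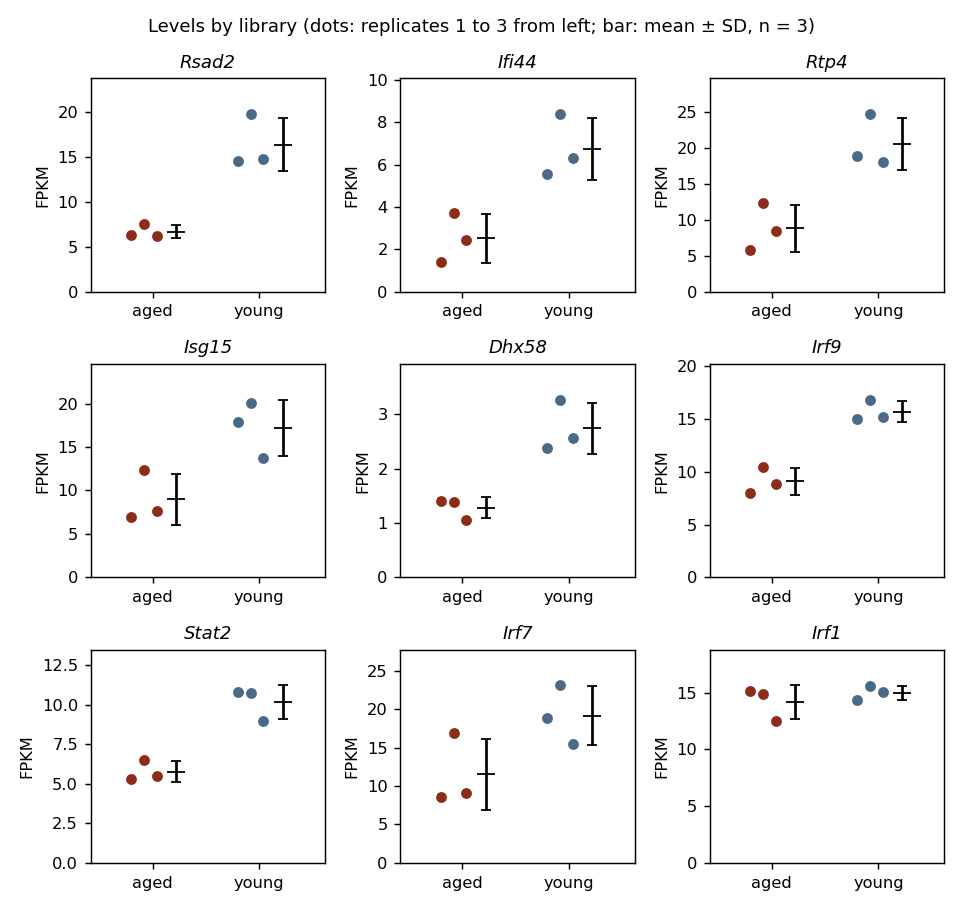
FPKM in each library for 9 members, aged left and young right, with mean ± SD (n = 3). Rsad2, Irf9 and Stat2 show a clear gap between ages, while Irf7 and Irf1 overlap.

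Members moved together from library to library within an age. Among the aged libraries replicate 2 held the highest value for 25 of 36 members (69.4%, against 36.2% of all tested genes) and replicate 1 the lowest for 28 (77.8%, against 32.1%). Among the young libraries replicate 2 held the highest for 29 (80.6%, against 36.7%). Relative to the mean of the young libraries, the median member's log2(FPKM + 1) differed by -0.76, -0.41 and -0.51 in the aged libraries, in replicate order, and by -0.10, 0.17 and -0.07 in the young ones. The members share these libraries, so their calls are not independent of each other. Members called lower numbered 16 without aged replicate 1 and 16 without young replicate 2, all of them among the 24.

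With an ISRE core in the window were 9 of the 18 members called lower and 3 of the 9 not called, among genes with a window. By role the core stood in 11 of 20 effectors, 1 of 2 sensors and 1 of 6 signalling factors. Rsad2, Isg15 and Bst2, printed with their cores, were called lower, but so were Irf7, Irf9, Ifi44 and Oasl2, whose windows hold none. Ifit1 and Ifit3b have cores and did not pass. These counts are a description of the letters, with no test.

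Upstream of the members, the ligands were hardly measured: Ifnk and Ifnz, the 2 of 18 listed with a row, were at most 0.17 FPKM in any library and were listed at 0 in several. Of 7 genes for receptors and JAK kinases, 3 (42.9%) were lower and 0 higher, the same at an unadjusted p under 0.05. The shares of all tested genes called were 17.1% lower and 9.32% higher. Ifnar1, a chain of the type I receptor, was at 6.46 ± 0.0709 FPKM in aged and 7.96 ± 0.452 in young (SD, n = 3 each, log2 -0.26, limma adjusted p = 0.0309). Ifngr1 and Ifngr2, the interferon gamma receptor chains, differed by -0.30 and -0.20. Of these 3 calls 0 were left without aged replicate 1 or 2 or young replicate 2 or 3 and with median-of-ratios scaling, and 1 was left without aged replicate 3, with quantile normalization, with no filter on low values, with a prior variance without a trend and with a replicate block.

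In the list of nucleic acid sensing 3 of 12 genes (25%) were lower and 0 higher, with 6 and 0 at an unadjusted p under 0.05. Over all tested genes 17.1% were called lower, so the share of this list was near that of all genes. Ddx58, the sensor RIG-I, was at 4.48, 5.82 and 4.57 FPKM in aged and 6.58, 8.75 and 7.66 in young (log2 -0.54, SE 0.121, limma adjusted p = 0.012). The others were the endosomal RNA receptor Tlr7 (-0.35) and the adaptor Ticam1 (-0.29). Of 9 brakes on signalling 2 (22.2%) were lower and 0 higher, with 3 and 0 at an unadjusted p under 0.05. This share too was near that of all genes. Rnf125, a ligase that tags RIG-I for degradation, was at 2.76 ± 0.346 FPKM in aged and 5.2 ± 0.576 in young (-0.72, adjusted p = 0.00234), and Adar, the RNA-editing enzyme, differed by -0.33. The sensing count was 1 without aged replicate 1 or young replicate 2 or 3, with median-of-ratios scaling, quantile normalization, no filter on low values or a replicate block. The count of lower brakes was 1 without those 3 libraries or aged replicate 3, and with either of those scalings. It was also 1 with no filter and with a minimum of 5 FPKM. Without aged replicate 1, and likewise without aged replicate 2, 1 brake was called higher.

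A second list of 38 tested interferon-stimulated genes outside the members had 20 lower (52.6%) and 2 higher (5.26%), with a median of -0.37. Over all tested genes the shares were 17.1% and 9.32%, with a median of -0.06. At an unadjusted p under 0.05, 27 of the list were lower and 3 higher. Lgals9, a galectin, was at 26.3, 31.6 and 29.3 FPKM in aged and 50.1, 64.6 and 56.8 in young libraries (1.97-fold lower, log2 -0.95, SE 0.101, limma adjusted p = 0.00038). Ube2l6, which conjugates ISG15, was at 19.1 ± 1.26 FPKM in aged and 31.8 ± 3.86 in young (SD, n = 3 each, -0.70), and Phf11d and Trim34a differed by -0.72 and -0.73. The higher genes, named after their values were seen, were Ifi205 and Ifitm1. Ifi205 was at 11.5, 13.4 and 14.3 FPKM in aged and 5.9, 2.69 and 6 in young (1.32, SE 0.223, adjusted p = 0.00367), and Ifitm1 differed by 0.57. The count of lower genes was 10 without aged replicate 1 or young replicate 2 and 13 without young replicate 3, and that of higher genes was 1 without aged replicate 1 or 3 or young replicate 1 or 3 and with no filter on low values.

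Some markers of other heart cell types also differed. Over all tested genes 17.1% were called lower and 9.32% higher. Of 10 endothelial markers 6 were lower and 0 higher, also at an unadjusted p under 0.05, among them Cdh5 (68.1 ± 2.82 FPKM in aged, 113 ± 15.0 in young, SD, n = 3 each; log2 -0.71, limma adjusted p = 0.00115). Kdr (-0.03), Emcn (-0.03), Egfl7 (-0.21) and Vwf (0.09) were not called. The endothelial list summed to 1133 to 1239 FPKM in aged and 1302 to 1793 in young libraries, with none at 0. Most of that sum was Fabp4, at 738 to 854 FPKM in aged and 838 to 1230 in young. Fabp4 was called lower, though its ages overlapped. Of 12 macrophage markers 2 (16.7%), Csf1r (-0.53) and Mrc1 (-0.44), were lower and 1 (8.33%), Ccr2 (0.55), higher, near the shares of all tested genes. At an unadjusted p under 0.05 these counts were 6 and 1, and in 10 of the 12 the difference was negative. The list summed to 290.5 to 349 FPKM in aged and 362 to 372 in young, mostly from C1qa, C1qb and C1qc, which were not called. Of 7 fibroblast markers 4 were lower and 0 higher (4 and 1 at an unadjusted p under 0.05). Pdgfra (-0.09), Dcn (0.12) and Gsn (0.21) were not called, though all aged libraries of Gsn lay above the young ones. Col1a1, which encodes collagen, had levels of 23.5, 19.5 and 29.2 FPKM in aged and 59.1, 73.6 and 71.6 in young (-1.48, adjusted p = 0.000194), and Dpt, Lum and Tcf21 differed by -0.41, -0.48 and -0.33. The fibroblast list summed to 1059 to 1159 FPKM in aged and 1049 to 1133 in young, with none at 0, and its lower count was 2 without young replicate 2. The part of these cells in the members' difference was not tested. In whole ventricle fewer cells of a type and less RNA per cell cannot be told apart. Plasmacytoid dendritic cells, the main makers of interferon alpha, left little trace of their defining marker Siglech, at 0.23 to 0.39 FPKM in aged and 0.21 to 0.41 in young. Of 5 tested genes of their list 2 were lower, Tcf4 and Bst2, of which Bst2 is among the 36 members. The 2 higher were Cox6a2 and Ly6d, and Irf8 (-0.35) was not called. Ly6d was at 6.09, 11.65 and 1.17 FPKM in aged and 0.49, 1.17 and 0.44 in young. The sum of the list, 4881 to 5863 FPKM in aged and 3606 to 3922 in young, was mostly Cox6a2, which striated muscle also expresses. The 10 lymphocyte markers summed to 4.57 to 6.71 FPKM in aged and 4.16 to 6.37 in young libraries. The neutrophil list summed to 53.5, 70.7 and 9.83 FPKM in aged and 3.24, 9.06 and 2.06 in young, with Ly6g listed at 0 in all aged and 2 of 3 young libraries. In aged libraries most of it was S100a8 and S100a9. Of 3 tested genes these 2 were called higher, and Csf3r (0.47) was not called. Both were highest in aged replicates 1 and 2, which also held the high stratified epithelium sums. Untested Mmp9 averaged 1.55 FPKM in aged and 0.307 in young, and Retnlg 0.323 and 0.357. The part of epithelium in these values was not tested.

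**Figure D5:**
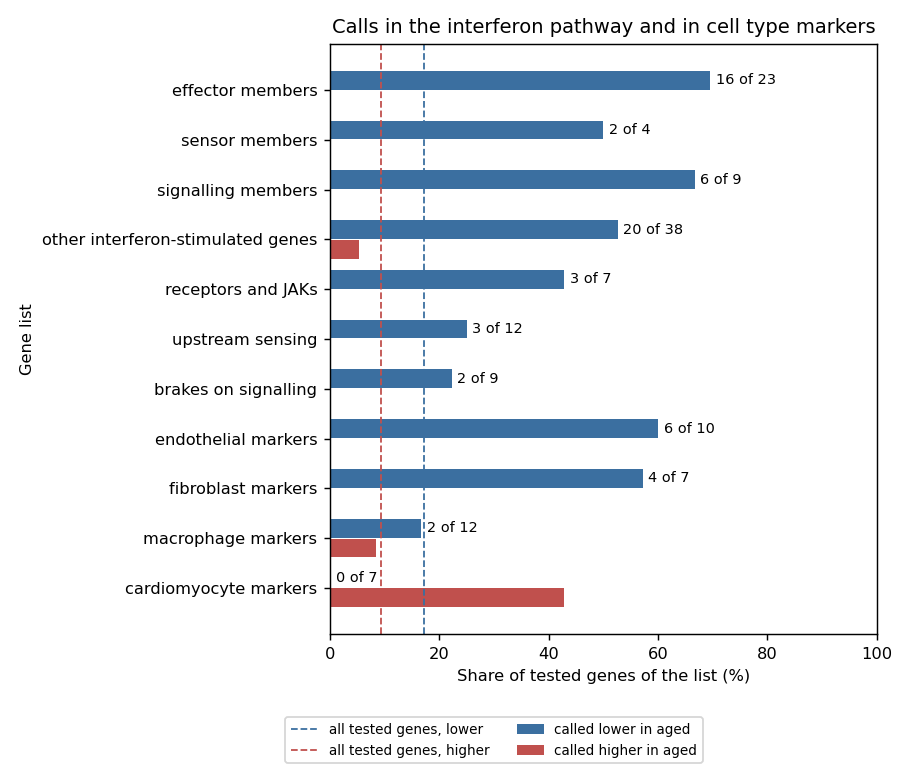
Bars give the share of each list's tested genes called lower or higher in aged ventricle, with counts of lower calls beside them; dashed lines mark 17.1% lower and 9.32% higher over all tested genes. Effector, sensor (2 of 4) and signalling members and the second interferon-stimulated list exceed the dashed line for lower calls. So do receptors and JAKs (3 of 7), endothelial markers (6 of 10) and fibroblast markers (4 of 7). Upstream sensing (3 of 12) and brakes (2 of 9) lie a little above that line and macrophage markers lie at it. No cardiomyocyte marker was called lower.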

How the data were processed

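The authors deposited FPKM for 18181 genes in 6 libraries, rounded to 2 decimals; the unit is named per the file headers. Per the submitters' processing notes, DESeq2 1.4.5, RSEM 1.2.12, Bowtie2 2.2.5, HISAT2 2.0.4 and the build mm10 were used, with no role stated. Annotation and filters: not given in the sources used here. In genes listed at 0 in 2 or more libraries, the ratios between libraries of values of at least 0.1 FPKM clustered. Each pair's cluster was the ratio with the most genes near it. In most pairs more genes lay 1 log2 unit from it than at a shorter control distance. This did not hold for aged replicates 2 and 3, young replicates 1 and 3, or young replicates 2 and 3. Relative depth was set from these clusters over all pairs of libraries, 78 to 377 genes a pair, with a largest residual of 0.053 in log2. This step was added after the data were seen. Absolute depth is unknown, so no counting interval is given.

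Aged minus young was fitted with limma 3.58.1 in R 4.3.3 (lmFit, eBayes with a mean trend, two-sided) on log2(FPKM + 1) for the 11860 genes averaging 1 FPKM or more. Calls used a threshold of 0.05 on the p adjusted by Benjamini and Hochberg. A fold divides mean FPKM values. With 3 libraries against 3, exact permutation p-values stop at 0.1. The steps were tested on simulated data. Every member is given with its values, and full statistics go to up to 4 called members of a family; up to 4 called genes of each other list are named. The members, roles and lists were chosen with earlier results of these data known. A pathway gene is not reported here. Alternatives were another pseudocount or filter, 3 other scalings, 3 variance or weight settings, a replicate block, each library left out, and aged replicate 3 alone.

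Coordinates and promoters are from RefSeq on GRCm38.p6, the assembly called mm10, with all 37 gene IDs matched. Shared windows of 100 bases were counted between the longest coding transcript of a member and all transcripts of other genes in GENCODE vM21. Tables and plots used Python 3.11.15 with pandas 2.3.3 and matplotlib 3.10.9.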

Additional observations from a re-analysis of the deposited data

How the results depend on the processing

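Of the 24 members called lower, 11 (Oasl2, Rsad2, Bst2, Isg15, Ifi44, Rtp4, Trim30a, Dhx58, Trim25, Stat2 and Irf9) were called lower in every alternative that tested them, 5 lost the call in 1 alternative, with the other aged libraries both left out, and 8 lost it in 3 or more. The cause was not tested. Members called lower numbered 16 to 27 when 1 library was left out and 12 with aged replicate 3 alone; 1, Ifi27, was called higher with median-of-ratios scaling. Over all genes the calls were 3131, with 1882 to 2915 when 1 library was left out (1882 without young replicate 3, 2056 without young replicate 2) and 972 with aged replicate 3 alone, where fewer samples enter. Of 602 member values under alternatives 599 kept their sign. The exceptions were Slfn2, at 0.081 without aged replicate 1 (-0.38 to 0.081 when 1 library was left out), and Irf1, at 0.0076 with quantile normalization and 0.0066 without aged replicate 3 (-0.12 to 0.0066). A minimum of 5 FPKM left 26 members to test, so the others have no value there. Whether the replicate numbers pair the samples is not settled here. Deviations of same-numbered libraries correlated at 0.04, -0.08 and 0.04 across all tested genes, and those of other pairs at -0.07 to 0.06. A correlation over all genes cannot tell whether the members alone are paired. With a replicate block 26 members were lower and 2785 genes called. Unknown absolute depth, with aged replicate 3 the shallowest library at 0.838 of the mean, limits what can be said of members near 1 FPKM.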

Other observations

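The IFI200 genes, a cluster of interferon-inducible DNA-binding proteins in the second list, differed among themselves. Mndal was at 18.7 ± 2.91 FPKM in aged and 25.4 ± 1.71 in young ventricle (SD, n = 3 each, log2 -0.43, limma adjusted p = 0.0167), while Ifi205 was called higher in aged (1.32). Ifi203 differed by -0.48 (adjusted p = 0.0516), Ifi204 by -0.09 and Ifi213 by -0.08, none of which passed, and Ifi209 was under the level for testing. These genes, and Cxcl10, were singled out after their values were seen. The family holds close gene copies, for which shared windows were not counted, so its values are uncertain. Cxcl10, a chemokine induced by interferon, was at 0.56, 0.52 and 1.19 FPKM in aged and 2.58, 3.47 and 1.16 in young libraries (-0.91, limma adjusted p = 0.0323), with aged replicate 3 just above young replicate 3.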
